A study of Mus musculus with 14 samples.

Results

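Expression of 7 genes with which macrophages take up, store, recycle and export iron was examined in myeloid cells of experimental breast cancer brain metastases (BrM), spleen and bone marrow. The genes were Slc40a1, Hmox1, Spic, Cd163, Tfrc, Slc11a1 and Fth1. All probes carrying these symbols were taken, 15 of the 45281 probes on the array, and the 7 genes are among 19057 genes with a symbol. They form a functional group, and the rule takes them by symbol and uses no measured value. The 7 genes were, however, chosen with earlier results of these data known.

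Macrophages of the splenic red pulp, liver and bone marrow engulf old red cells, open the haem ring with heme oxygenase 1 (Hmox1) and return the iron to plasma through ferroportin (Slc40a1), the only known cellular exporter of iron. Haem induces the transcription factor Spi-C (Spic), on which red pulp macrophages depend. CD163 (Cd163) takes up haemoglobin bound to haptoglobin, the transferrin receptor (Tfrc) takes up transferrin iron, NRAMP1 (Slc11a1) moves iron out of the phagosome, and ferritin heavy chain (Fth1) stores it. Erythroid precursors also carry a large amount of transferrin receptor, and neutrophil granules hold the iron-binding protein lactoferrin.

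Each of 14 Illumina bead arrays measured RNA of GFP+CD11b+ cells, that is, myeloid cells descended from transplanted hematopoietic stem cells. All recipients were C57Bl/6J mice aged 14 weeks whose marrow had been replaced, after lethal irradiation, by cells carrying GFP under the ubiquitin C promoter. Cells were sorted from tumors grown in the brain from implanted PyMT (4 arrays) or EO771 (2 arrays) breast cancer cells, both mouse lines. Control cells came from the spleen (3 arrays) and bone marrow (1 array) of mice with PyMT BrM and from the spleen (2 arrays) and bone marrow (2 arrays) of naïve mice without tumor, which stood in for EO771 tumor-bearing mice. For the EO771 model, tumor and tumor-free host therefore cannot be told apart in the control comparison. CD11b is shared by macrophages, monocytes, neutrophils and some other leukocytes, so each array holds a mixture, and a lower value could mean fewer cells of a type or less RNA per cell, which cannot be told apart here.

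Itgam, which encodes the CD11b of the sort, read 7.29 to 7.94 on the BrM arrays and 5.74 to 8.87 on the others, and the macrophage marker Adgre1 9.12 to 10.16 and 8.03 to 9.92. The mixture differed between the tissues. The mean log2 intensity of 12 measured neutrophil markers was 6.35 to 9.15 on the BrM arrays and 11.44 to 12.66 on the other 8, whereas that of 11 macrophage markers was 11.25 to 11.87 and 8.32 to 10.80. Over the 21679 probes above a mark of dim signal, PyMT spleen 2 stood apart, with Pearson correlations of 0.956 to 0.969 with the bone marrow arrays, against 0.876 to 0.891 with the other spleens, which correlated with each other at 0.933 to 0.981. Its B cell marker mean was 5.47, against 8.16 to 8.53 in the other 4 spleens. Where leaving it out changed a call of the 7 genes, both results are given, as are some others. Both arrays of naïve bone marrow have sample codes built on a shared stem and differed less than any other replicate pair (SD of the probe differences 0.327), and the labels do not say that they came from separate mice. EO771 BrM 2 carries 2 animal numbers and may be a pool.

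Values are log2 intensities, so that a difference of 1 is a doubling, and a gene is represented by its brightest probe unless stated otherwise. A difference was called where limma's p, adjusted over the probes of the whole array, fell under 0.01. As a mark of dim signal, olfactory receptor probes, whose genes are not known for transcription in leukocytes, had a 95th percentile of 4.44 to 4.99 on the 14 arrays. Of the 15 probes, 13 exceeded it on at least 2 arrays. The remaining pair, second probes of Slc40a1 and Cd163, never did.

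Against all 8 spleen and bone marrow arrays, 3 of the 7 genes were lower in BrM and none was higher. They were Slc40a1, Tfrc and Spic. Over all probes, 3.12% were called lower in this comparison and 3.8% higher. Over all genes, each by its brightest probe, 4.13% and 4.89% were. The median difference of the 7 genes was -1.80 on the log2 scale, against -0.01 over all genes. Against spleen alone Slc40a1 and Spic were called lower (2 of 7, with 2.6% of all probes and 3.23% of all genes called lower). Against bone marrow alone Slc40a1 was called lower (1 of 7, with 3.21% of all probes and 4.53% of all genes). The plot of all arrays shows that the genes did not share a pattern: Slc40a1 separated BrM from everything else, Spic and Hmox1 were high in most spleens, Cd163 was highest in naïve spleen, and Fth1 was flat.

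**Figure D1:**
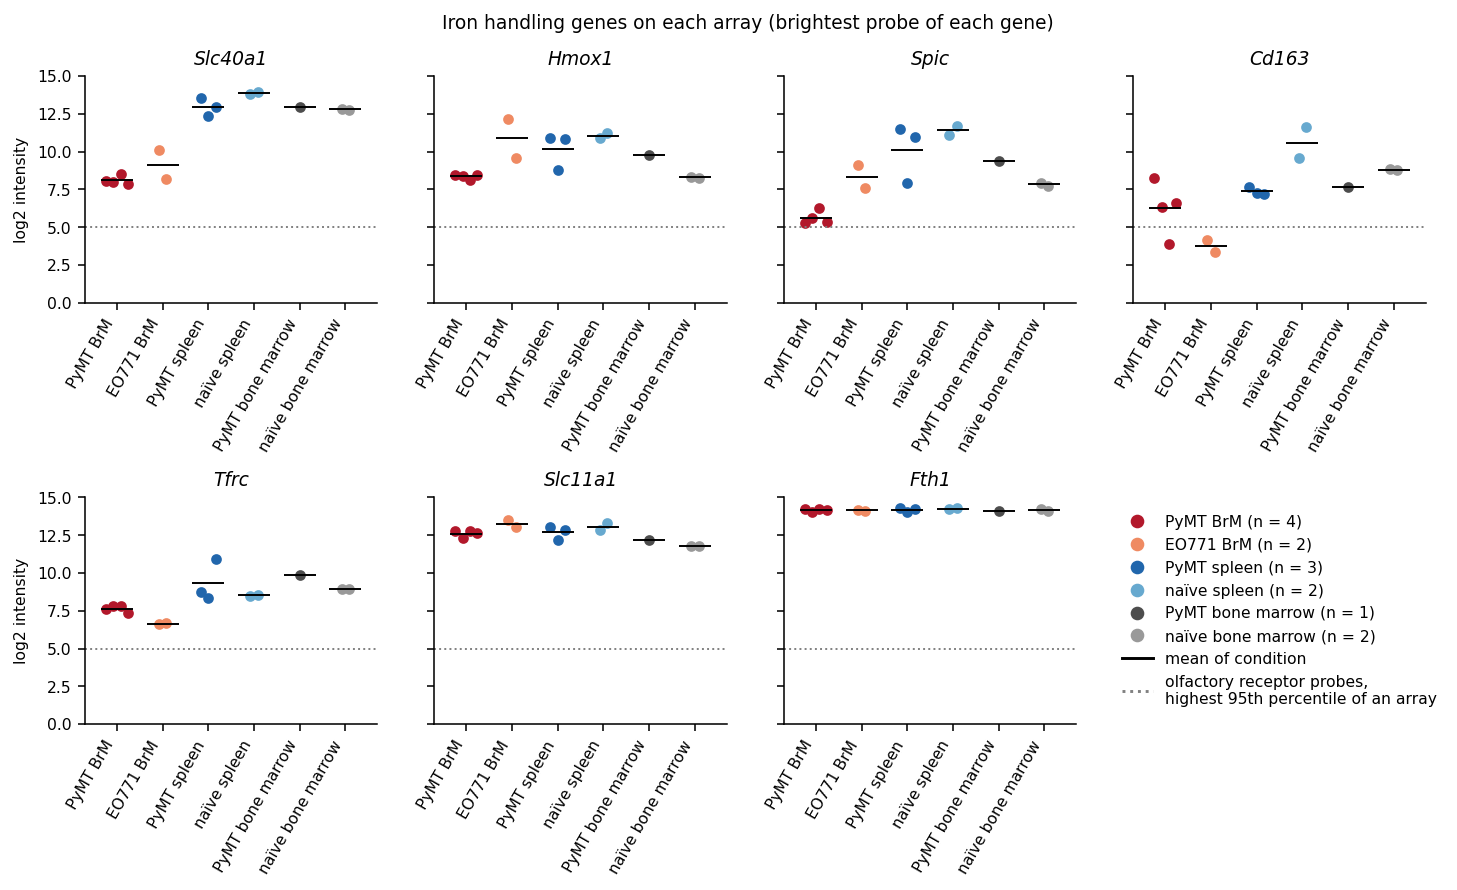
Log2 intensity (vertical axis) of the brightest probe of each iron handling gene on 14 arrays in 6 conditions (horizontal axis), with a point per array, a black line at the mean of the condition and a dotted line at the highest 95th percentile of the olfactory receptor probes, 4.99. The 6 BrM arrays of Slc40a1 lie between 7.88 and 10.09 and the other 8 between 12.39 and 13.95.

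Slc40a1, the iron exporter, showed the clearest separation. Probe ILMN_2747923 read 8.08, 8.004, 8.51 and 7.88 in the 4 PyMT BrM and 10.09 and 8.17 in the EO771 BrM. It read 13.57, 12.39 and 12.99 in the PyMT spleens, 12.98 in the PyMT bone marrow, 13.80 and 13.95 in the naïve spleens, and 12.84 and 12.79 in the naïve bone marrow. Every BrM array lay below every other array, as for 2.81% of all probes, and EO771 BrM 1 was the highest of the BrM.

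The difference was -4.71 (SE 0.34), a 26.1-fold lower mean, with adjusted p = 1.56e-07. It was -4.88 (SE 0.38, adjusted p = 1.06e-06) against spleen and -4.41 (SE 0.44, adjusted p = 1.28e-05) against bone marrow. Within the PyMT mice, where tumor and control came from tumor-bearing hosts, it was -4.86 (SE 0.40, adjusted p = 6.67e-06), and in EO771 BrM against naïve controls -4.21 (SE 0.49, adjusted p = 1.31e-04). Spleen and bone marrow were not shown to differ in this gene (0.47, SE 0.46, adjusted p = 0.727). From the highest to the lowest mean, the order was naïve spleen (13.87), PyMT spleen (12.98), PyMT bone marrow (12.98), naïve bone marrow (12.81), EO771 BrM (9.13) and PyMT BrM (8.12). Of the gaps between neighbors that were tested, naïve over PyMT spleen (0.89, SE 0.48, adjusted p = 0.333) and EO771 over PyMT BrM (1.01, SE 0.46, adjusted p = 0.239) were not called. The call held when any 1 array was left out in each of these comparisons against controls.

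BrM and the other tissues, which differed in Slc40a1, also differed in markers of other cells. Of 12 neutrophil markers measured, 11 were called lower in BrM, with Ngp, a granule protein, at 3.17 to 8.88 in BrM and 12.37 to 14.22 elsewhere, and S100a8 still at 11.86 to 13.44 in BrM. Of 10 erythroid markers measured, 4 were called lower, with the list mean at 4.35 to 5.23 in BrM and 5.22 to 8.36 elsewhere. Within the tissues the order varied. EO771 BrM 1, with the highest Slc40a1 of the BrM, had the lowest erythroid mean of all arrays (4.35). In bone marrow the erythroid means (8.03, 7.61 and 7.52) ranked as Slc40a1 did (12.98, 12.84 and 12.79). PyMT spleen 2, with the lowest Slc40a1 of the controls, had the highest neutrophil mean (12.66). The part of these cells in the Slc40a1 difference was not tested. Between BrM and controls, the arrays with the higher macrophage marker means had the lower ferroportin RNA. Among the controls, naïve spleen 2 had the highest macrophage mean (10.80) and the highest Slc40a1 (13.95). PyMT spleen 2 had the lowest of each (8.32 and 12.39). The dim second probe, ILMN_1238359, averaged 2.99 and was not called (0.24, SE 0.30, adjusted p = 0.715). Averaged with it, the difference of Slc40a1 against all controls was -2.23, still called.

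Spic encodes the haem-induced transcription factor of red pulp macrophages. Of the called genes with a promoter entry, Spic and Tfrc are shown here, each as the 250 bases before the annotated start of transcription in RefSeq, build GRCm38.p6, 5′ to 3′ on the strand of the gene. The window of Spic is chr10:88683024-88683273 on the minus strand and that of Tfrc is chr16:32608646-32608895 on the plus strand. Capitals mark GGAAGT or its reverse complement, a core letter sequence bound by ETS-family factors, to which Spi-C belongs. The motif was picked after the sequences had been seen.

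Spic: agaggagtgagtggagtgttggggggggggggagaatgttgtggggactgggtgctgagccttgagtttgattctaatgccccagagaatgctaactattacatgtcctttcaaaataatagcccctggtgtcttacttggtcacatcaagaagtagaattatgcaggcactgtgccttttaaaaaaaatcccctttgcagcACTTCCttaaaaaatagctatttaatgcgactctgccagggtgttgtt
Tfrc: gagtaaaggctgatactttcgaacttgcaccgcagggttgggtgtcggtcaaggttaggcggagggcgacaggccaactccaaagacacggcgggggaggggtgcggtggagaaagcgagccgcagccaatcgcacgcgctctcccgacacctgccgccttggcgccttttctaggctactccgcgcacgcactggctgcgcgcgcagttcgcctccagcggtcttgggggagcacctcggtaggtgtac

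The Spic window holds the motif on the reverse strand at bases -48 to -43, counted back from the start, and the Tfrc window shown does not. Tfrc has 2 windows, and the one not shown holds the motif on the forward strand at bases -218 to -213. Over 7 windows of 5 member genes (Slc40a1 and Hmox1 had no entry), 2 held it, as did 19.7% of all 32851 promoter windows of that length. The antioxidant or Maf recognition core TGACNNNGC was in none of the 7 and in 10.2% of all windows, and the E-box CACGTG was in none and in 6.02%, both strands counted and overlaps between motifs allowed. No match says only that these letters are not in these windows.

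Spic probe ILMN_2854004 read 5.26, 5.60, 6.30 and 5.36 in the PyMT BrM and 9.09 and 7.60 in the EO771 BrM. In spleen it read 11.47, 7.93 and 10.96 in the PyMT mice and 11.13 and 11.69 in the naïve mice. In bone marrow it read 9.38 in the PyMT mouse and 7.92 and 7.76 in the naïve mice. The 4 PyMT BrM were the lowest of all arrays, though each was above the dim mark of its array (4.46 to 4.71), and of the EO771 BrM the first lay within the range of the bone marrow arrays and the second just below it. PyMT spleen 2 read like bone marrow and not like the other spleens.

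Against spleen, Spic was 17.1-fold lower in BrM (-4.10, SE 0.75, adjusted p = 0.00206), and -4.78 (SE 0.65, adjusted p = 2.22e-04) without PyMT spleen 2. The call against spleen held when any 1 array was left out, but was lost with the replicate number as a block (adjusted p = 0.0101) and in the 3 PyMT BrM and spleens paired by the codes in their labels (-4.37, SE 0.63, adjusted p = 0.0285). Against all controls it was -3.24 (SE 0.77, adjusted p = 0.00985), a value so near the threshold that leaving out any of 10 arrays ended the call, up to adjusted p = 0.0288. Those 10 were the 4 PyMT BrM, EO771 BrM 2, both naïve spleens, PyMT spleens 1 and 3 and the PyMT bone marrow. Against bone marrow the difference of -1.82 (SE 0.88, adjusted p = 0.242) was not called. The second Spic probe, ILMN_2652608, gave -3.19 (SE 0.58, adjusted p = 0.0019) against spleen and -2.38 (SE 0.64, adjusted p = 0.0212) against all controls, where it was not called. This probe was under the dim mark on all 4 PyMT BrM, so its differences are compressed.

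Spic was also compared within each tumor model and between the models. In PyMT BrM against PyMT controls it was 19.8-fold lower (-4.31, SE 0.91, adjusted p = 0.00785). That call was lost without any of 9 arrays, namely each PyMT BrM, each EO771 BrM, PyMT spleens 1 and 3 and the PyMT bone marrow (adjusted p up to 0.0263). In that comparison 2 of the 7 genes, Slc40a1 and Spic, were called lower, as were 1.87% of all probes and 2.42% of all genes. In EO771 BrM against naïve controls it was -1.28 (SE 1.12, adjusted p = 0.675), and the difference between the 2 contrasts was -3.03 (SE 1.44, adjusted p = 0.574). All PyMT BrM lay below both EO771 BrM, as for 17.2% of all probes. The mean difference, -2.71 (SE 0.79, adjusted p = 0.0653), was not called. Without 1 array it ranged from -3.46 to -1.97, the latter without EO771 BrM 1 (adjusted p = 0.474), and it was called only without PyMT spleen 2 (adjusted p = 0.00364), an array that enters the fit but not the difference.

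Hmox1 degrades haem to iron, carbon monoxide and biliverdin. Its probe ILMN_2788073 read 8.48, 8.40, 8.13 and 8.46 in the PyMT BrM and 12.16 and 9.61 in the EO771 BrM. In spleen it read 10.94, 8.77 and 10.83 in the PyMT mice and 10.89 and 11.24 in the naïve mice, and in bone marrow 9.79 in the PyMT mouse and 8.34 and 8.25 in the naïve mice. EO771 BrM 1 was the highest of all arrays, the 4 PyMT BrM lay between 8.13 and 8.48, near naïve bone marrow, and PyMT spleen 2 again lay below the other spleens.

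Hmox1 was not called in any comparison. Against all controls the difference was -0.67 (SE 0.66, adjusted p = 0.626), against spleen -1.33 (SE 0.66, adjusted p = 0.268) and against bone marrow 0.41 (SE 0.77, adjusted p = 0.842). Without EO771 BrM 1 the difference against all controls was -1.26 (adjusted p = 0.165). Without PyMT spleen 2 the difference was -1.77 (SE 0.65, adjusted p = 0.106) against spleen and -2.15 (SE 0.75, adjusted p = 0.0954) in the PyMT model. The models had opposite signs. In the PyMT model the difference was -1.71 (SE 0.73, adjusted p = 0.165), with all 4 BrM below all 4 controls, as for 7.2% of all probes. In the EO771 model it was 1.203 (SE 0.90, adjusted p = 0.594), and -0.07 without EO771 BrM 1. The difference between these contrasts was not called (-2.92, SE 1.16, adjusted p = 0.464). PyMT BrM were all below EO771 BrM, by 2.52 (SE 0.66, 5.72-fold, adjusted p = 0.0451). This rested on EO771 BrM 1, without which the difference was -1.24 (SE 0.65, adjusted p = 0.493), against -3.79 (SE 0.65, adjusted p = 0.022) without EO771 BrM 2. Over all probes, 17.2% had all PyMT BrM below both EO771 BrM. Spleen exceeded bone marrow by 1.74 (SE 0.79, adjusted p = 0.362), by 2.18 (SE 0.77, adjusted p = 0.118) without PyMT spleen 2, and by 2.77 (SE 0.76, adjusted p = 0.129) between the naïve organs alone.

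Cd163 encodes the scavenger receptor for haptoglobin-haemoglobin and is used as a marker of tissue macrophages. Probe ILMN_2964560 read 8.25, 6.36, 3.86 and 6.58 in the PyMT BrM and 4.15 and 3.37 in the EO771 BrM. In spleen it read 7.64, 7.29 and 7.19 in the PyMT mice and 9.58 and 11.62 in the naïve mice, and in bone marrow 7.64 in the PyMT mouse and 8.85 and 8.77 in the naïve mice. Both EO771 BrM and PyMT BrM 3 read no higher than the olfactory receptor probes. PyMT BrM 1 overlapped the controls, and the spread within PyMT BrM (SD 1.81, n = 4) was the largest of the 7 genes in that condition.

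In EO771 BrM against naïve controls Cd163 was called lower (-5.94, SE 0.94, adjusted p = 0.00137), 1 of 2 such genes with Slc40a1. Of all probes 1.14% were called lower there, and of all genes 1.68%. Both tumor arrays lay below all 4 controls, as for 14.7% of all probes. Since both tumor arrays were at the dim level, the difference is a bound, and the naïve controls were at least 36.1-fold higher with the tumor arrays set at the mark of dim signal. Leaving out either EO771 BrM ended the call (adjusted p up to 0.0316). In PyMT BrM against PyMT controls the difference was -1.18 (SE 0.77, adjusted p = 0.381). The difference between the 2 contrasts, 4.77 (SE 1.21), had adjusted p = 0.156 and was not called. Of all probes 0.13% were called there. Against all controls Cd163 had -3.14 (SE 0.80, adjusted p = 0.0143) and was called without PyMT BrM 1 (adjusted p = 0.00403) and under 6 of 13 other settings, 2 of which only relax the threshold (adjusted p 0.00131 to 0.0437 over the 13). PyMT spleens lay below naïve spleens by 3.22 (SE 0.95, adjusted p = 0.094), all 3 below both, as for 16% of all probes. The second probe, ILMN_2627340, was dim on all arrays, with -0.70 (SE 0.31, adjusted p = 0.187).

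Tfrc encodes transferrin receptor 1, through which cells take in iron from plasma. Probe ILMN_2619848 read 7.64, 7.80, 7.80 and 7.38 in the PyMT BrM and 6.61 and 6.69 in the EO771 BrM. In spleen it read 8.78, 8.37 and 10.93 in the PyMT mice and 8.51 and 8.53 in the naïve mice, and in bone marrow 9.88 in the PyMT mouse and 8.97 and 8.97 in the naïve mice. Every BrM array lay below every control, as for 2.81% of all probes. The EO771 BrM were the lowest, and PyMT spleen 3 was far above the other spleens.

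Against all controls the difference was -1.80 (SE 0.37, 3.48-fold lower, adjusted p = 0.00354). The second probe, ILMN_2860804, gave -1.79 (SE 0.34, adjusted p = 0.00196). The call of the brightest probe was lost without EO771 BrM 1 or EO771 BrM 2 (adjusted p up to 0.0108). Within each organ the difference was of like size without being called, -1.70 (SE 0.42, adjusted p = 0.0168) against spleen and -1.95 (SE 0.49, adjusted p = 0.0161) against bone marrow, where the second probe was called (-1.95, SE 0.45, adjusted p = 0.00954) and the brightest probe was called without PyMT spleen 3. It was -1.84 (SE 0.42, adjusted p = 0.0125) in the PyMT model, called without PyMT spleen 2 (-2.21, SE 0.38, adjusted p = 0.00325), and -2.10 (SE 0.52, adjusted p = 0.0249) in the EO771 model.

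Tfrc was highest on the arrays with the highest erythroid means. PyMT spleen 3 had the highest erythroid mean, 8.36, followed by PyMT bone marrow with 8.03, and PyMT spleen 1 had the lowest of the controls, 5.22, within the BrM range. The order did not hold among the other spleens. PyMT spleen 2, with an erythroid mean of 6.995 against 6.144 and 6.135 in the naïve spleens, had the lowest Tfrc of the controls, 8.37. Slc4a1, the red cell anion exchanger, read 13.25 in PyMT spleen 3 and at most 4.97 in BrM, and Epor, the erythropoietin receptor, 7.35 and at most 5.05. In PyMT spleen 1, whose erythroid mean was close to the 5.23 of PyMT BrM 4, Tfrc was 8.78. PyMT BrM 4 read 7.38, the lowest of the PyMT BrM, and this is 1 array against 1. The part of erythroid cells in the Tfrc difference was not tested.

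Slc11a1, the phagosomal metal transporter, was bright in all conditions, at 11.81 to 13.48 by probe ILMN_2675811. It read 12.78, 12.29, 12.77 and 12.62 in the PyMT BrM and 13.48 and 13.07 in the EO771 BrM, in spleen 13.03, 12.21, 12.84, 12.82 and 13.31, and in bone marrow 12.22, 11.81 and 11.82. BrM and spleen overlapped almost completely and bone marrow was the lowest. The difference was -0.01 (SE 0.24, adjusted p = 0.994) against spleen and 0.89 (SE 0.28, adjusted p = 0.0539) against bone marrow, with all BrM arrays above all bone marrow arrays, as for 9.45% of all probes. Of the other 3 probes, ILMN_2674884 was called higher in BrM than in bone marrow (1.59, SE 0.25, adjusted p = 5.01e-04), as were 3.24% of all probes, whereas ILMN_2692797 (0.96, SE 0.27, adjusted p = 0.0299) and ILMN_2983516 (0.76, SE 0.33, adjusted p = 0.189) were not.

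Fth1, the ferritin subunit that oxidizes iron for storage, lay between 14.04 and 14.32 on every array by probe ILMN_2876066. The array maximum was 14.58, so this probe was near the ceiling of the scale, where differences are compressed. Its difference against all controls was -0.02 (SE 0.13, adjusted p = 0.945). The second probe, ILMN_2876071, was less bright at 13.08 to 14.02 and gave 0.17 (SE 0.17, adjusted p = 0.653), with the lowest values in PyMT spleen 2 (13.08) and PyMT bone marrow (13.18).

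**Figure D2:**
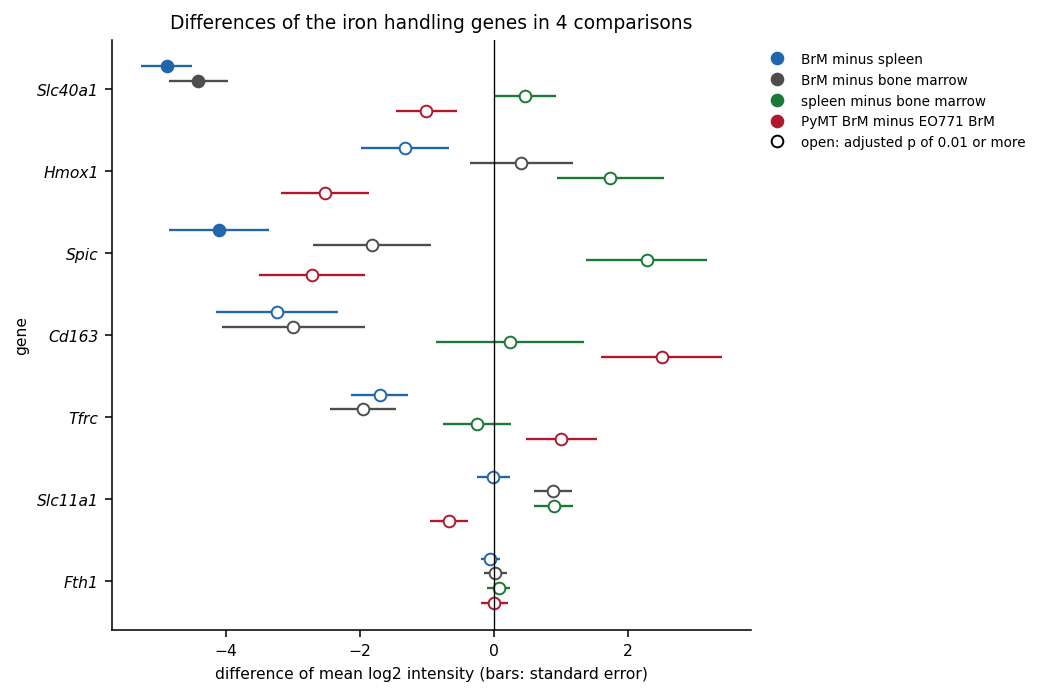
Differences of mean log2 intensity (horizontal axis, bars are the standard error from limma) of the 7 genes (vertical axis) for BrM against spleen, BrM against bone marrow, spleen against bone marrow and PyMT BrM against EO771 BrM, with filled points at an adjusted p under 0.01. Filled points are those of Slc40a1 against both organs (-4.88 and -4.41) and of Spic against spleen (-4.10), and the comparisons share arrays.

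Spleen and bone marrow were compared directly, and none of the 7 genes was called, with 0.00883% of all probes called. Limma gave 4 of the 7 an unadjusted p of 0.05 or more, and the other 3, Hmox1, Spic and Slc11a1, were each higher in spleen at unadjusted p = 0.0444, 0.0233 and 0.00759. Without PyMT spleen 2, Spic exceeded bone marrow by 2.96 (SE 0.77, adjusted p = 0.0305) and Slc11a1 by 1.05 (SE 0.27, adjusted p = 0.029). On simulated data of this layout, 55.2% of changes of 2 log2 units were recovered in this comparison. The simulated arrays held no differences between the conditions of a tissue, so recovery in these data may be lower. An uncalled difference of that size is thus not shown to be absent. Between PyMT BrM and EO771 BrM none was called either, with 1.59% of all probes called, although limma gave 5 an unadjusted p under 0.05. Spic, Hmox1 and Slc11a1 read lower in every PyMT BrM and Tfrc higher (1.01, SE 0.53, adjusted p = 0.321), as 18.8% of all probes were. Between PyMT and naïve spleens none was called, with 0.115% of all probes, and 1 gene, Cd163, had an unadjusted p under 0.05. The difference between the PyMT and EO771 contrasts was called for none of the 7 and had an unadjusted p under 0.05 for Hmox1 and Cd163.

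Across the 14 arrays the genes formed loose pairs. Spic correlated with Slc40a1 at Pearson r = 0.85 and with Hmox1 at 0.815, whereas Slc40a1 and Hmox1 correlated at 0.46, and Slc11a1 with Hmox1 at 0.739. These values describe 14 arrays that fall into tissues and may share hosts. The genes most like each member in this sense were Arhgef18, Paqr9 and Ets1 for Slc40a1 (r = 0.968 to 0.972), Arap2, Slc14a1 and Map7 for Spic (0.948 to 0.974), Cdan1, Tspan33 and Gpd1 for Tfrc (0.929 to 0.974), and Btbd1, Pts and Pithd1 for Cd163 (0.925 to 0.959). For Hmox1 they were Mapk12, B3gnt5 and Pparg (0.866 to 0.881), for Slc11a1 Klc1, Clec4a1 and Pus3 (0.909 to 0.913), and for Fth1, which barely varied, Gtf3c2, Rps15a and Taf1a (0.8 to 0.813).

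Spic belongs to a list of 6 genes taken here as red pulp macrophage markers, and the other 5 did not all move with it. Itgad, the integrin CD11d, lay at 2.94 to 3.88 in BrM, below the dim mark on all 6 arrays, and at 7.98 to 12.94 elsewhere (adjusted p = 1.69e-05, at least 51.3-fold higher in the controls). Treml4 was also lower in BrM (-1.89, SE 0.41, adjusted p = 0.0053). Siglec1, the sialoadhesin CD169 of several macrophage types and so not particular to the red pulp, was higher (3.36, SE 0.29, adjusted p = 9.1e-07). Vcam1 differed by -1.92 (SE 0.75, adjusted p = 0.121) and was split by model, at 11.88 on average in PyMT BrM and 8.04 in EO771 BrM (adjusted p = 0.00413), the reverse of the order of Spic. Cd5l was dim on all arrays. PyMT spleen 2 read 7.98 for Itgad and 11.20 for Vcam1, the lowest of the spleens for each, as it did for Spic.

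**Figure D3:**
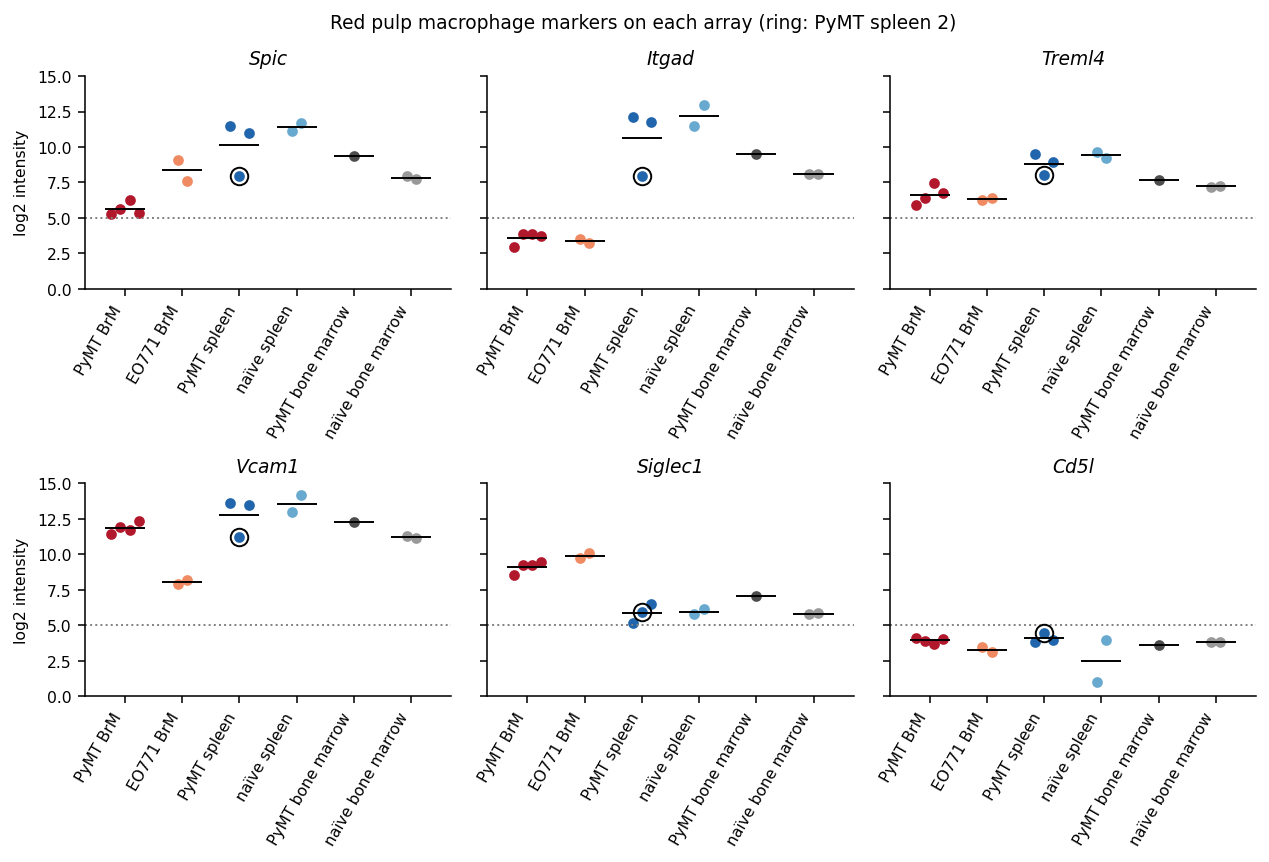
Log2 intensity (vertical axis) of 6 genes taken here as red pulp macrophage markers, on 14 arrays in 6 conditions (horizontal axis). Each array is a point and a black line marks the mean. A dotted line marks the highest olfactory receptor 95th percentile (4.99), and a ring marks PyMT spleen 2. Siglec1 is higher in all 6 BrM arrays (8.55 to 10.11) than in the others (5.18 to 7.10), whereas Itgad is at the dim level in BrM.

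A wider set of 64 measured genes of iron and haem metabolism gave no common direction. Against all controls 4 were higher and 5 lower in BrM, 6.25% and 7.81%, with a median difference of 0.05. Over all 19057 genes these shares were 4.89% and 4.13%, with a median of -0.01. Against spleen 2 were higher and 4 lower, 3.12% and 6.25%, where over all genes 3.3% and 3.23% were. Against bone marrow 1 was higher and 5 lower, 1.56% and 7.81%, where over all genes 4.45% and 4.53% were. Between spleen and bone marrow none was called, with 0.00525% of all genes called.

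The largest falls were in proteins that bind iron, siderophores or haemoglobin outside the cell. Ltf, lactoferrin, had a difference of -6.98 (SE 0.69, adjusted p = 5.19e-06), Lcn2, the siderophore binder lipocalin 2, -4.58 (SE 0.43, adjusted p = 2.57e-06), and Hp, haptoglobin, -3.52 (SE 0.37, adjusted p = 1.03e-05). Ltf and Lcn2 are neutrophil granule proteins and stand in the neutrophil list as well, and the part of neutrophils in these differences was not tested. Slc25a37, mitoferrin 1, which imports iron into mitochondria for haem synthesis, had -2.23 (SE 0.29, adjusted p = 6.55e-05), and Ppox, a late enzyme of that synthesis, -0.92 (SE 0.20, adjusted p = 0.00593).

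Higher in BrM were Hif1a, the hypoxia-regulated transcription factor (2.34, SE 0.34, adjusted p = 1.82e-04), and Hmox2, the constitutive heme oxygenase (0.91, SE 0.18, adjusted p = 0.00259). Steap2, a metalloreductase, was called higher (adjusted p = 0.00338), and since all 8 controls were dim the difference is a bound, at least 1.79-fold for the mean of all BrM arrays. Cp, ceruloplasmin, a ferroxidase that works with ferroportin, was higher by 1.84 (SE 0.44, adjusted p = 0.00956), with overlap between the groups. Only 4 of the 8 controls were above the dim mark for Cp. Steap2 was called lower and Cp higher in PyMT than in EO771 BrM (below), so neither pooled value describes both models. Of 10 measured targets of NRF2, a regulator that also drives Hmox1, only Srxn1, sulfiredoxin, was called (2.07, SE 0.31, adjusted p = 2.77e-04). The calls of Cp and Ppox were lost under 17 and 14 of 27 other settings, single arrays left out included.

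**Figure D4:**
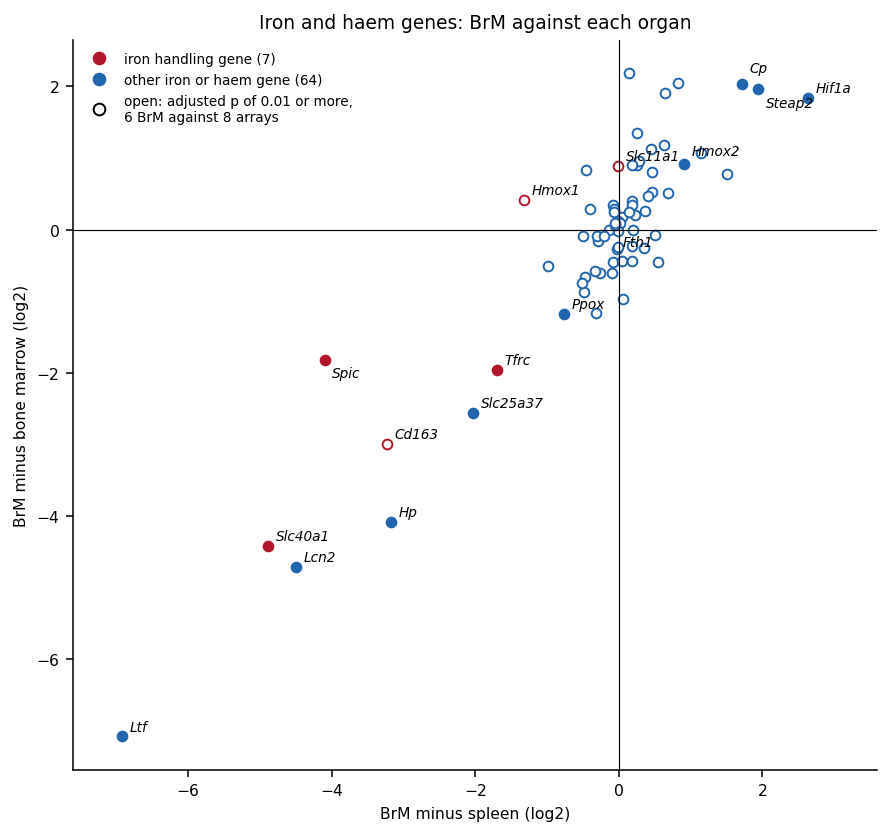
Log2 difference of BrM against bone marrow (vertical axis) and against spleen (horizontal axis) for the 7 iron handling genes and 64 other genes of iron and haem metabolism, with filled points for those at an adjusted p under 0.01 for 6 BrM against 8 control arrays. The axes share the BrM arrays, and Spic departs from the diagonal at -4.10 against spleen and -1.82 against bone marrow.

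Between the tumor models 5 of the 64 genes were called, 3 higher (4.69%) and 2 lower (3.12%) in PyMT BrM, where over all genes 0.819% and 1.12% were. They were chosen for naming after their values were seen. Trf, transferrin, was higher in PyMT BrM than in EO771 BrM by 2.97 (SE 0.49, adjusted p = 0.00599), as were Cp by 2.37 (SE 0.38, adjusted p = 0.00484) and Abcb8, a mitochondrial transporter, by 1.68 (SE 0.30, adjusted p = 0.00844). Ftl1, the ferritin light chain, was lower in PyMT BrM by 1.82 (SE 0.31, adjusted p = 0.00646), as was Steap2 by 2.19 (SE 0.33, adjusted p = 0.00392). Fth1, the partner of Ftl1 in ferritin and near the ceiling, had 0.01 (SE 0.20, adjusted p = 0.988), and the difference between these genes was not tested.

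Other markers differed between the models as well. Of 10 carcinoma markers, Krt18, Krt14 and Cdh1 were called higher in PyMT BrM, with the list mean at 4.77 to 5.56 there and 4.13 to 4.16 in EO771 BrM, whereas Epcam averaged 2.81 and 2.83. Of 10 proliferation genes, Birc5 and Tyms were called higher, with the list mean at 7.03 to 7.65 and 6.04 to 6.14. The mean of 7 microglia markers was 8.27 to 8.49 and 7.06 to 7.64, with none of the 7 called. The part of such cells in the differences between the models was not tested.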

How the data were processed

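The authors deposited 1 log2 intensity per probe and array, background-corrected by an unstated method and quantile normalized. GenomeStudio 2011.1 and limma (version not given) are named in the submitters' processing notes. All 14 columns were mapped to samples by their labels. No source used here names the logarithm's base, which was inferred from the highest values. No detection p-values were used.

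Here limma 3.58.1 in R 4.3.3 (lmFit, eBayes, two-sided) was run on all 45281 probes with Benjamini-Hochberg adjustment. Pooled groups gave BrM against all controls. BrM, spleen and bone marrow as 3 groups gave the organ comparisons, 4 groups gave the PyMT and EO771 contrasts and their difference, and 6 conditions gave the remaining comparisons. Standard errors are limma's. Of the probes, 34885 carry 1 gene symbol in the platform annotation, which can be old. On simulated data, 83.6% of changes of 2 log2 units were recovered in the pooled comparison, 77.6% against spleen and 58.2% against bone marrow. The simulation used the spread within the 6 conditions and left out differences between conditions of a group, so recovery in these data may be lower. Precision is limited by the few arrays.

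The 7 genes, 20 further gene lists and the rule for naming genes were chosen with earlier results of these data known. The rule names all probes of the members, called genes of the wider iron and haem list in the pooled and the spleen against bone marrow comparisons, and 3 most alike genes per member. Alternatives were other scalings, a filter on dim probes, probe averaging, variance models, blocks, group weights, Student's test of the methods, thresholds and leaving out each array. Added after seeing the data were naïve organs alone, BrM against naïve spleen, and counts without PyMT spleen 2. Promoters were searched in Python 3.11.15.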

Additional observations from a re-analysis of the deposited data

Results flagged for a closer look

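In 28 sets of arrays (7 genes, each in 4 sets), 5 held an array farther from the rest than Dixon's test at the 95% level allows. In separate sets from a uniform group, chance gives about 1 in 20. Most sets here mix conditions, the sets overlap and the genes are correlated, so that rate does not apply and no excess over chance is shown. EO771 BrM 1 was the highest of the 6 BrM for Slc40a1 (10.09, next 8.51) and for Hmox1 (12.16, next 9.61). PyMT spleen 2 was the lowest of the 5 spleens for Hmox1 (8.77, next 10.83) and for Spic (7.93, next 10.96). PyMT spleen 3 was the highest spleen for Tfrc (10.93, next 8.78). No gene had a called difference between the PyMT and the EO771 contrasts.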

How the results depend on the processing

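Slc40a1 was called lower against all controls, spleen and bone marrow under every alternative run and without any 1 array, although averaging in its dim second probe reduced the pooled difference from -4.71 to -2.23. In the EO771 model its call was lost when only the arrays compared entered the fit (adjusted p = 0.0118). The causes of the following changes were not tested. The number of the 7 genes called, 3 against all controls, was 1 by the adjusted Student's test and 1 to 3 without 1 array (1 without EO771 BrM 2). Against spleen the count of 2 was 1 with a replicate block, by the adjusted Student's test and in 3 PyMT BrM and spleens paired by code, and 4 with equal weight of the 6 conditions, at unadjusted p under 0.05 in Student's test and at adjusted p under 0.05. Against bone marrow the count of 1 was 2 with a filter on dim probes, a replicate block, equal weights, only the arrays compared or adjusted p under 0.05, 3 with all probes of a gene averaged, 4 by the unadjusted Student's test, and 1 to 2 without 1 array (2 without PyMT spleen 3). Spleen against bone marrow gave 2 by the unadjusted Student's test instead of 0. In the PyMT model the count of 2 was 1 with probes averaged, a replicate block or the adjusted Student's test, 4 by the unadjusted one, and 1 to 3 without 1 array (3 without PyMT spleen 2). In the EO771 model it was 0 by the adjusted Student's test, by which 1 or more genes were called in each of the other BrM comparisons with controls, and 1 to 3 without 1 array (1 without either EO771 BrM, 3 without PyMT spleen 3). PyMT against EO771 BrM gave 4 by the unadjusted Student's test, 1 at adjusted p under 0.05 and 0 to 1 without 1 array (1 without PyMT spleen 2), and PyMT against naïve spleen gave 1 by the unadjusted Student's test, each against 0.

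Centring on the reference genes shifted all pooled differences by -0.32, and calls are relative to the scale as deposited. Some uncalled differences changed sign, most of them near 0, though Hmox1 in the EO771 model (1.203) and Slc40a1 in the difference of the contrasts (-0.647) did so without EO771 BrM 1. Fth1 became 0.072, 0.036, 0.163, 0.014 and -0.102 with probes averaged (all controls, spleen, PyMT model, EO771 model, between models of BrM), -0.218, -0.098 and 0.111 with reference genes (bone marrow, difference of the contrasts, PyMT against naïve spleen), 0.017 with equal weights (PyMT model) and -0.021 with the replicate block (PyMT against EO771 BrM). Slc11a1 became 0.115 with probes averaged, 0.036 with the replicate block and 0.067 with equal weights against spleen, and -0.363 with reference genes in the PyMT model. Without 1 array, Slc11a1 ranged from -0.164 to 0.111 against spleen and -0.082 to 0.189 in the PyMT model. Fth1 ranged from -0.05 to 0.044 in the PyMT model, -0.005 to 0.09 in the difference of the contrasts, -0.021 to 0.048 between PyMT and EO771 BrM and -0.112 to 0.03 between PyMT and naïve spleens. Hmox1 ranged from -0.177 to 0.911 against bone marrow and -0.069 to 2.475 in the EO771 model, Cd163 from -0.497 to 0.609 and Tfrc from -0.725 to 0.055 between spleen and bone marrow. In the difference of the contrasts Tfrc ranged from -0.112 to 0.741 and Slc40a1 from -1.608 to 0.313.

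The labels do not say whether arrays with the same number or code came from 1 mouse. Deviations from the group means correlated at -0.064 to 0.023 between such arrays. With so few arrays per group, from different tissues, this cannot tell whether arrays shared a mouse. The range also includes EO771 BrM with naïve spleen, which were separate mice. The main fits did not pair arrays, so a shared host is not accounted for there, and blocks and pairs by code were run as alternatives. The replicate block ended the Spic call against spleen and in the PyMT model. The dim level of olfactory receptor probes limits what can be read below about 5, and the top of the scale limits Fth1.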
